A study of Homo sapiens with 12 samples.

Results

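RNA bound by the truncated form of ZC3H18 was compared with RNA recovered by a control protein, across the transposable elements (TEs) of the human genome. ZC3H18 is a nuclear zinc-finger protein that links capped RNA to the machinery of nuclear RNA decay. The comparison used the 3 Z18trunc libraries and the 3 Clover libraries among 12 libraries of 4 constructs, chosen by their sample titles. V5-tagged constructs were transiently transfected into A375 cells, an established human melanoma line, and no source used here describes removal of the cells' own ZC3H18. Z18trunc is ZC3H18 cut short by a frameshift with an intact zinc finger, and Clover is a fluorescent protein that carries the same tag. In PAR-CLIP, cells are fed 4-thiouridine, which light crosslinks to nearby protein, and RNA is then recovered with the tagged protein. Labelling began 24 h after transfection, anti-V5 precipitates were not size-selected, and stranded libraries were made after rRNA depletion. The methods give triplicate precipitations without saying whether they came from separate cultures, so p-values measure the spread between these samples, which may be technical.

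TEs are copies of mobile sequences. LINE-1 (L1) is the LINE family that still moves in humans, and most of its copies are truncated and old. Alu, MIR and SVA elements have no protein of their own, endogenous retroviruses (ERV1, ERVK, ERVL and ERVL-MaLR) are flanked by long terminal repeats, and Tigger and hAT elements are DNA transposons. L1 insertions lie often in introns and between genes. The coding strand of L1 is rich in A, so that a read from this strand (sense) carries many A and a read from the opposite strand (antisense) many U.

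Sequences of 3 L1 elements are given as examples of both strands. They were taken from hg38 on the strand of the reads, 5′ to 3′, with T for U, and capitals mark each run of at least 3 A or at least 3 T. They were chosen for the single-locus results below, all but L1PA15-16 after their values were seen. L1PB1 (chr2:75968863-75969063, + strand) is a short intronic element that rose, and L1PA15-16 (chr21:9013111-9013254, + strand) lies opposite a lncRNA gene. L1MB7 is the antisense example (chrX:153786503-153786754, - strand), the L1 element of at most 300 bases with the most antisense counts.
L1PB1: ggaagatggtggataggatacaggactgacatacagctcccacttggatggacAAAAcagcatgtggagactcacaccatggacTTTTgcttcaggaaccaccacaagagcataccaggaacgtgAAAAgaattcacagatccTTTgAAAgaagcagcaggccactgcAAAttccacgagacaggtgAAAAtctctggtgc
L1PA15-16: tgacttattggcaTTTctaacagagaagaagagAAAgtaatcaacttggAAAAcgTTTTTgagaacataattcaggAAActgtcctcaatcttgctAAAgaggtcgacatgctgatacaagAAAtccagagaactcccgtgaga
L1MB7: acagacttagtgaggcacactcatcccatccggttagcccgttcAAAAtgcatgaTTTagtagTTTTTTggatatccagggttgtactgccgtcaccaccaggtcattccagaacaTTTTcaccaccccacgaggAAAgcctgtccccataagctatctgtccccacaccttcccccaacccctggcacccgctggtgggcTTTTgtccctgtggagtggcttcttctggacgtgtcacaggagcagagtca
Runs of A made up 8.96% of the L1PB1 sequence and 2.78% of the antisense L1MB7 sequence, and runs of T 3.48% and 6.75%. L1PA15-16 had 11.1% and 5.56%. Single elements vary, since T made up 25.4% of the antisense L1MB7 sequence and 24.3% of the sense L1PA15-16 sequence, against a median U content of 37.8% over antisense L1 loci. Among the loci tested, sense L1 elements had a median of 14.7% of bases in such A runs and 2.52% in T runs, while antisense L1 elements had 2.70% and 13.9%. Only the read strand was searched. Nearly every tested locus holds an AAA (97.7% of sense and 92.3% of antisense loci) or a TTT (93.4% and 95.2%).

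The Clover libraries held 16683132 to 17673644 aligned fragments, of which 6.28 to 6.95% were element counts. The Z18trunc libraries were deeper, at 23670466 to 24200920, with 8.68 to 9.59% in elements. Z18trunc replicate 3 stood apart from replicates 1 and 2. It listed 695379 elements against 517343 and 550717. Its counts summed by subfamily and strand differed from those of replicates 1 and 2 by a chi-square of 16.1 and 13.4 per degree of freedom. The value was 2.23 between replicates 1 and 2 and at most 3.11 among Clover libraries. Some of the results that rest on Z18trunc replicate 3 are given with and without it. The tables hold repeats only, so melanoma markers and the level of each construct were not analysed here. With no measure of total RNA, more binding and more of an RNA in the transfected cells cannot be told apart.

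Sense L1 RNA was the family that rose most in Z18trunc. Counts per 1000000 aligned fragments (CPM) were 8315, 7077 and 7329 in Clover and 17786, 18317 and 17165 in Z18trunc. Every Z18trunc library lay far above every Clover library, and replicate 3 did not stand apart here. The change was 0.92 ± 0.09 on the log2 scale (SE, 3 libraries against 3; edgeR adjusted p = 0.000314) after TMM scaling, which assumes that most features do not change, and 1.23 when libraries were scaled by aligned fragments. Antisense L1 RNA measured 4108, 3616 and 3288 CPM in Clover and 4266, 4721 and 6708 in Z18trunc. The reading depended on the scaling, since the change of 0.17 ± 0.09 missed the threshold of 0.05 with TMM (edgeR adjusted p = 0.262) and that of 0.51 passed it with aligned fragments. The highest antisense value was that of Z18trunc replicate 3.

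Of 79 families and strands tested, 8 rose (10.1%) and 6 fell (7.59%) with TMM. Sense Tigger elements, of the TcMar-Tigger family, measured 664, 580 and 585 CPM in Clover and 991, 1042 and 1143 in Z18trunc, without overlap, and rose by 0.48 ± 0.04 (edgeR adjusted p = 0.00013). Sense PiggyBac elements (0.78 ± 0.12) and sense ERVL-MaLR elements (0.14 ± 0.03) rose as well. On the antisense strand, L2 (0.21 ± 0.04), ERV1 (0.19 ± 0.03), RTE-X (0.24 ± 0.04) and hAT (0.38 ± 0.09) rose. Antisense Gypsy elements fell by 0.59, with 147, 143 and 147 CPM in Clover against 117, 121 and 125 in Z18trunc. They were lower under both scalings (log2 change -0.27 with aligned fragments). The MamGypLTR1b subfamily held a mean of 115 of 146 CPM in Clover and 80.5 of 121 in Z18trunc. Of its counts 1 element held 97.0% and 94.8%, so the family value rests largely on that element. Sense ERVL?, sense hAT-Ac and antisense RTE-BovB elements fell with TMM (log2 changes -0.48, -0.45 and -0.48) and missed the threshold with aligned fragments. Sense RTE-BovB and antisense ERVK elements fell with TMM (-0.29 and -0.27) and had the opposite sign with aligned fragments (0.03 and 0.05). Sense Alu RNA, the most abundant group, was at 18192, 17368 and 16426 CPM in Clover and 21078, 21318 and 22010 in Z18trunc, a log2 change of -0.01 ± 0.07 with TMM and 0.31 with aligned fragments.

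**Figure D1:**
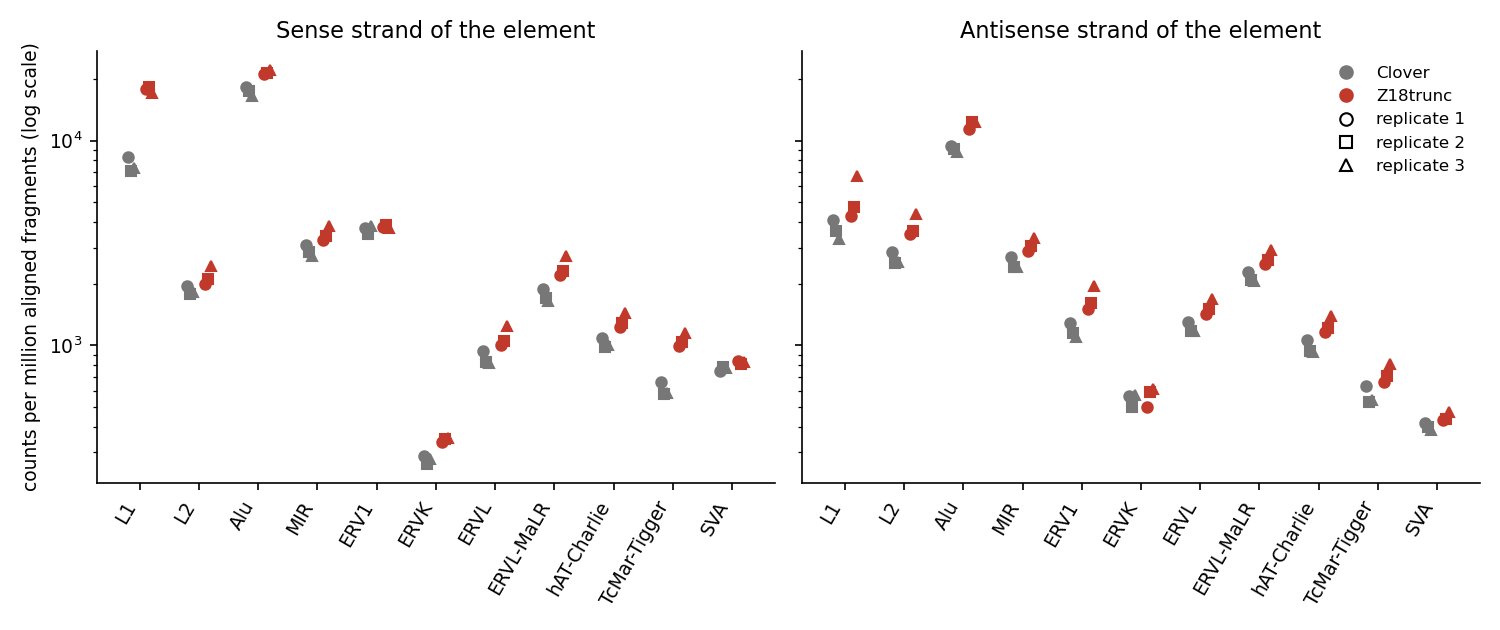
CPM of aligned fragments (log axis) of 11 TE families on the sense strand (left) and antisense strand (right), 1 point per library, 3 Clover (grey) and 3 Z18trunc (red) libraries. Sense L1 moves from 7077 to 8315 in Clover to 17165 to 18317 in Z18trunc, while antisense L1 reaches 6708 only in Z18trunc replicate 3.

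The shift between the scalings recurred at every level. Over all 1852 subfamilies and strands, the median log2 change was 0.01 with TMM and 0.49 with aligned fragments. With TMM, 167 rose (9.02%) and 144 fell (7.78%), and with aligned fragments 814 of 1857 rose (43.8%) and 13 fell (0.7%). Changes below use TMM unless aligned fragments are named. TMM factors were computed for each level on its own, so TMM changes at different levels are not on 1 common scale. At single loci the median TMM change was 0.11 in sense and -0.23 in antisense.

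L1 subfamilies rose on the sense strand. Of 130 tested, 100 rose and 1 fell (X9_LINE, log2 change -0.76), with a median of 0.76 against 0.01 over all 924 sense subfamilies, of which 133 rose and 82 fell. On the antisense strand 9 of the 130 L1 subfamilies rose and 3 fell, with a median of 0.12, beside 34 and 62 of all 928 antisense subfamilies. Without Z18trunc replicate 3 the sense count was 104 rising and 1 falling of 130, and the antisense count 5 rising and 12 falling of 129. With aligned fragments the medians were 1.23 (sense) and 0.62 (antisense), and 126 sense and 95 antisense L1 subfamilies rose.

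The L1 lists, ordered by age, differed in the size of the rise. The youngest group, L1HS and L1PA2 to L1PA6, had 5 of 6 members higher and a median of 0.55. L1HS, the subfamily that is still mobile, measured 148, 136 and 140 CPM in Clover and 290, 294 and 252 in Z18trunc (0.53 ± 0.13, edgeR adjusted p = 0.00919). L1PA4 and L1PA5 rose by 1.08 ± 0.14 and 1.14 ± 0.14, and L1PA6 missed the threshold at 0.39 ± 0.14 (adjusted p = 0.0732). Medians were higher in the primate groups of intermediate age, L1PA7 to L1PA17 (1.08, 12 of 12 higher) and L1PB with L1P1 to L1P5 (1.26, 16 of 18 higher), and in L1MA, an older mammalian group (1.12, 12 of 12 higher). All 7 L1MB subfamilies rose with a median of 0.48. The older groups had 7 of 11 (L1MC, 0.46), 3 of 6 (L1MD, 0.35), 14 of 27 (L1ME, 0.46) and 20 of 25 (other L1M, 0.86) members higher, and HAL1 3 of 4 (0.50). None of these lists had a falling sense member. Summed sense L1MA RNA was 428, 349 and 337 CPM in Clover and 1218, 1278 and 1272 in Z18trunc, a ratio of means of 3.38. The antisense L1MA sum was 305.68, 259 and 224 against 305.94, 340 and 569. The lowest Z18trunc value there was only just above the highest Clover value.

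L1MA2 had the largest sense rise among subfamilies with at least 200 mean counts. Its counts were 673, 565 and 545 in Clover and 4107, 4269 and 3994 in Z18trunc, which is 40.3, 33.1 and 30.8 CPM against 173, 176 and 169. No Z18trunc library came near a Clover library, and the change was 1.86 ± 0.11 (edgeR adjusted p = 7.43e-08; 2.31 with aligned fragments). The rise was spread over elements: 550 L1MA2 elements had counts in Clover and 1352 in Z18trunc, and the leading element held 3.14% and 4.23% of the counts. L1MA3, its neighbour in age, rose from 1182, 953 and 966 counts to 6175, 6401 and 5792 (1.64 ± 0.12), with its leading element at 5.77% and 2.99%. L1MA1 rose by 1.68 ± 0.11, L1PBa by 1.51 ± 0.13, L1PB3 by 1.47 ± 0.14 and L1PA8 by 1.45 ± 0.12. L1M4c (1.65 ± 0.12) and L1M2c (1.55 ± 0.15) rose to a like degree, but single elements held 47.9% and 44.6% of their counts in Clover and 43.2% and 32.1% in Z18trunc. All 8 had non-overlapping groups.

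**Figure D2:**
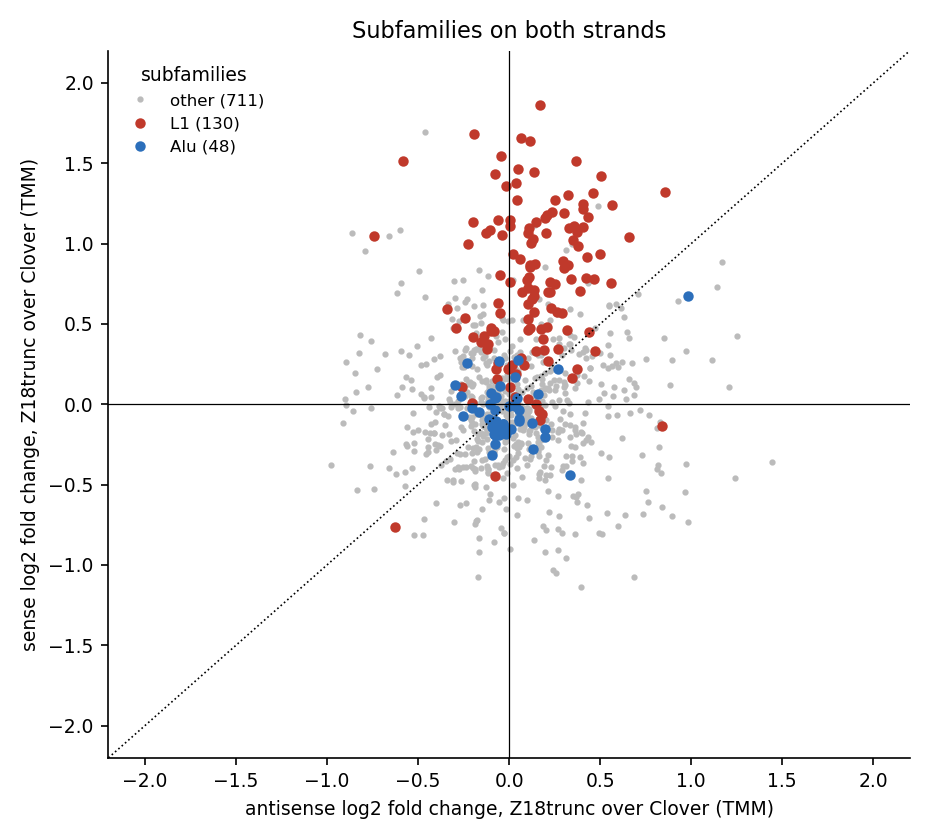
Log2 change (Z18trunc over Clover, TMM) of 889 subfamilies tested on both strands, antisense on the horizontal and sense on the vertical axis, 1 point per subfamily, dotted line at equal change. Of 130 L1 subfamilies (red) 118 lie above the line, against 16 of 48 Alu (blue) and 315 of 711 others (grey).

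Divergence from the consensus (milliDiv, mismatches in parts per 1000, which grows with age) sorted the sense L1 rise. Elements were put in 7 bins, each 50 milliDiv wide but for the open last one. Over 125 bins of family, divergence and strand, 21 rose (16.8%) and 16 fell (12.8%). All 7 sense L1 bins rose. From the least to the most diverged, the log2 changes were 0.87, 0.89, 1.23, 0.996, 0.73, 0.54 and 0.36. The third bin, which starts at 100, measured 1084, 903 and 944 CPM in Clover and 2998, 3110 and 2757 in Z18trunc (1.23 ± 0.09, edgeR adjusted p = 5.5e-05). The oldest bin measured 559, 486 and 483 against 795, 836 and 917 (0.36 ± 0.03). The groups were apart in both, and these changes differed by more than their SEs, though the difference itself was not tested. No antisense L1 bin passed the threshold in edgeR (0 of 7 at an unadjusted p under 0.05), with log2 changes between -0.05 and 0.21. With aligned fragments all 7 were called higher, with log2 changes from 0.33 to 0.599. Sense Tigger elements had their largest change in the same bin (0.66 ± 0.04), and fell by 0.14 in the bin of 300 and over, where aligned fragments gave 0.24.

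**Figure D3:**
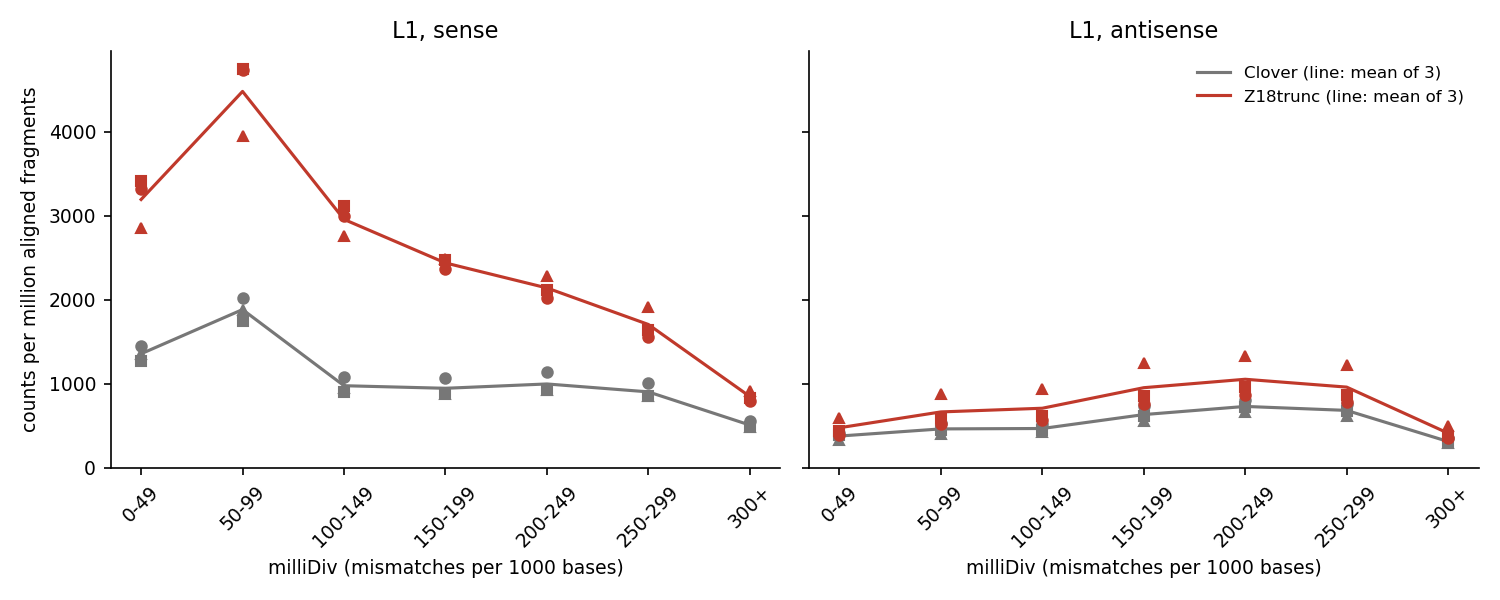
CPM of aligned fragments of L1 elements by milliDiv bin, sense (left) and antisense (right), 1 point per library with lines through the means of 3 Clover (grey) and 3 Z18trunc (red) libraries. The sense lines are farthest apart in ratio in the third bin (3.02) and closest at 300 and over (1.67), and the highest antisense points are those of Z18trunc replicate 3.

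The mean milliDiv of L1 counts, weighted by counts, was 157.9, 157.1 and 154.8 in Clover and 142.3, 143.7 and 154.6 in Z18trunc. Replicates 1 and 2 of Z18trunc lay well below Clover and replicate 3 just below it (exact two-sided permutation p = 0.1, which is the lowest value possible for 3 against 3 libraries, and 0.15 when adjusted by Benjamini-Hochberg over the 21 values tested this way). The difference turned from -9.73 to 2.19 when only loci with a score of at least 90 were kept. This cut was made in each library on its own, so the loci kept differ between libraries. The score is the share, in percent, of an element's aligned reads that was assigned to it.

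The balance of strands moved with the family. Of L1 counts, 66.9%, 66.2% and 69.0% were sense in Clover and 80.7%, 79.5% and 71.9% in Z18trunc. The Z18trunc values were all higher, with replicate 3 nearest to Clover (exact permutation p = 0.1; adjusted 0.15). Over all TEs the sense share was 60.3%, 60.5% and 60.7% against 64.0%, 63.0% and 60.7%, a gap in which replicate 3 exceeded the highest Clover library only in the second decimal. ERV1 counts moved to antisense, from 74.5%, 75.2% and 77.7% sense to 71.5%, 70.6% and 65.9%. L2 counts did so as well, from 40.4%, 41.5% and 41.7% to 36.4%, 36.8% and 35.9%, and ERVL-MaLR counts moved to sense, from 45.2%, 45.02% and 44.3% to 46.9%, 47.1% and 48.2%. The groups did not overlap in these 3 families (exact permutation p = 0.1; adjusted 0.15 for each). With a score of at least 90 the L1 difference went from 9.97 to 1.98 percentage points, that of ERV1 from -6.49 to -1.16, that of L2 from -4.85 to -2.15 and that of ERVL-MaLR from 2.54 to 1.23, and the difference over all TEs turned from 2.11 to -0.706.

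A test of the sense-to-antisense ratio, in which the scaling of libraries cancels, called 85 of 893 subfamilies moved to sense (9.52%) and 39 to antisense (4.37%). L1 supplied 52 of the moves to sense among 130 subfamilies and 1 to antisense, with a median log2 change of 0.57. Without Z18trunc replicate 3 there were 88 and 1 among 127, with a median of 0.80, and leaving out any other library gave 22 (without Clover replicate 2, median 0.52) to 36 moves to sense. L1MA1 counts were 369, 288 and 286 sense beside 527, 506 and 429 antisense in Clover, and 1880, 1964 and 1955 sense beside 687, 755 and 1054 antisense in Z18trunc. Its sense share rose from a mean of 39.2% to 70.1%, so the leading strand changed (1.87 ± 0.17, edgeR adjusted p = 0.000254). L1M2a went from 6.04% to 18.2% sense (1.79 ± 0.16) and stayed a mostly antisense signal. L1P4d, with only 25 to 40 sense counts in Clover, went from 66.5% to 89.2% (2.08 ± 0.50). Internal parts of ERVL-MaLR elements, which lie between the long terminal repeats, had 9 moves to sense and 0 to antisense of 32 (median 0.40). The 4 called L2 subfamilies of 6 all moved to antisense, and ERV1 had 5 to sense and 18 to antisense of 241 (median -0.17). Leaving out 1 library changed the ERV1 counts to 0 and 8 (Z18trunc replicate 2), 4 and 10 (Clover replicate 2) or 2 and 10 (Clover replicate 3). The other omissions gave 2 to 8 moves to sense and 14 to 22 to antisense. The 4 L2 moves became 2 without Clover replicate 3.

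Among moves to antisense, MER50-int, an ERV1 internal part, had 158, 154 and 129 sense and 87, 72 and 75 antisense counts in Clover. In Z18trunc it had 175, 196 and 185 sense and 235, 206 and 333 antisense counts. Its sense share fell from 65.3% to 42.4% (log2 change of the ratio -1.37 ± 0.22, edgeR adjusted p = 0.00452), and its antisense rise was the largest among subfamilies with at least 200 mean counts (0.76 ± 0.15). FordPrefect, a hAT DNA transposon, went from 78.5% to 59.7% sense (-1.29 ± 0.15), and MER9a1, an ERVK long terminal repeat, from 86.9% to 71.1% (-1.44 ± 0.32). Antisense FordPrefect rose by 0.75 ± 0.13, MER57E3 by 0.69 ± 0.16 and L1M4a1 by 0.66 ± 0.17. The antisense L1 subfamilies that rose also included L1PB1 (0.41 ± 0.11) and L1PA17 (0.43 ± 0.11). In L1PB1 replicate 3 of Z18trunc held 3645 counts against 2136 and 2416.

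Outside L1, no sense Alu subfamily of 49 passed the threshold in either direction by edgeR (4 at an unadjusted p under 0.05, and 1 called by DESeq2), and the median was -0.09. With aligned fragments 37 of the 49 were higher and 0 lower (median 0.37). Of 6 SVA subfamilies, composites of Alu and other repeats, 5 were lower in sense with TMM (median -0.36), but their log2 changes with aligned fragments were above 0, from 0.08 in SVA_D and SVA_E to 0.11 in SVA_A and SVA_B. L2b (-0.35), L2c (-0.28), MIR3 (-0.38) and MIRc (-0.31), all sense, also fell with TMM and were above 0 with aligned fragments (0.12, 0.20, 0.09 and 0.16). The Tigger list was split with TMM, with 6 sense members higher and 7 lower of 56, while aligned fragments gave 34 higher and 0 lower. Tigger1 rose from 3775, 3326 and 3568 counts to 10177, 10599 and 10604 (0.62 ± 0.10), Tigger2 from 521, 506 and 497 to 1827, 1864 and 1989 (0.95 ± 0.10) and Tigger3 by 1.0003 ± 0.13. Antisense Tigger2 moved the other way, from 1754, 1568 and 1615 to 1739, 1769 and 1978 counts in deeper libraries (log2 change -0.79 ± 0.09; -0.33 with aligned fragments), and 1 element held 82.4% of it in Clover and 68.6% in Z18trunc.

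Internal parts of ERVL-MaLR elements rose on the sense strand in 9 of 34 subfamilies and fell in 4, and on the antisense strand 0 rose and 6 fell of 35, with TMM. Over all subfamilies 14.4% rose and 8.87% fell in sense, and 3.66% rose and 6.68% fell in antisense. With aligned fragments 16 sense members were higher and 0 lower, and 4 antisense members were higher and 0 lower, so the antisense direction depended on the scaling. THE1B-int rose from 1137, 1141 and 1015 counts to 2803, 3059 and 3437 (0.55 ± 0.09) and THE1C-int from 394, 380 and 332 to 1161, 1196 and 1285 (0.78 ± 0.10). THE1A-int rose in sense (0.36 ± 0.10) and fell in antisense (log2 change -0.51 ± 0.11; -0.05 with aligned fragments). MLT1D-int and MLT1B-int also rose in sense (0.76 ± 0.18 and 0.69 ± 0.19) and were lower in antisense (-0.59 and -0.61; -0.15 and -0.16 with aligned fragments). Of their long terminal repeats, 0 rose and 3 fell (7.5%) of 40 sense subfamilies with TMM, a falling share near that of all sense subfamilies, and 24 were higher and 0 lower with aligned fragments.

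Among sense subfamilies with at least 200 mean counts and non-overlapping groups, those that fell most were endogenous retroviruses. LTR21A, an ERV1 long terminal repeat, had 13.97, 14.4 and 15.1 CPM in Clover and 10.1, 11.5 and 10.1 in Z18trunc. The groups did not overlap, and the log2 change was -0.92 ± 0.14 (edgeR adjusted p = 0.000197; -0.45 with aligned fragments). HERV9-int had 40.3, 39.8 and 42.9 CPM against 33.4, 32.6 and 31.2 (-0.80 ± 0.12; -0.34). MER57A-int (-0.86 ± 0.10), MER51A (-0.85 ± 0.11) and MER54A (-0.80 ± 0.15) completed the list. Their changes with aligned fragments were -0.38, -0.38 and -0.33, and MER54A then missed the threshold (adjusted p = 0.0858). Single elements weighed heavily here: 1 element held 93.0% of MER57A-int counts in Clover and 86.0% in Z18trunc, and 54.7% and 45.2% of LTR21A counts. HERVH-int, an abundant ERV1 internal part, had 19504, 19240 and 23789 counts in Clover and 23527, 25072 and 19819 in Z18trunc (log2 change -0.80 ± 0.15; -0.35 with aligned fragments). On the antisense strand MamGypLTR1b had 114, 114 and 118 CPM in Clover against 81.0, 86.2 and 74.2 (-0.98 ± 0.13; -0.52), of which 1 element held 97.0% and 94.8%. Antisense SVA_E fell by 0.76 with TMM (-0.31 with aligned fragments), with 1 element at 76.5% and 64.2%. ERV1 as a whole had 9 sense subfamilies higher (3.54%) and 32 lower (12.6%) of 254 with TMM, beside 14.4% and 8.87% of all sense subfamilies. The balance was opposite with aligned fragments, at 57 higher and 7 lower.

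The place of the elements in genes sorted the sense L1 signal. Elements were called exonic or intronic by genes on the strand of the reads, and otherwise antisense to a gene or between genes. Intronic sense L1 RNA was 3701, 3141 and 3322 CPM in Clover and 10041, 10389 and 8989.5 in Z18trunc, a ratio of means of 2.89. Exonic sense L1 RNA was 992, 884 and 965 CPM against 1182, 1214 and 1067, a ratio of 1.22, with replicate 3 the lowest. The ratios were 2.32 between genes and 1.996 antisense to genes, without overlap of the groups. Introns held 44.5%, 44.4% and 45.3% of sense L1 counts in Clover and 56.5%, 56.7% and 52.4% in Z18trunc. Intronic antisense L1 RNA rose less in these sums, from 2418, 2172 and 2039.8 CPM to 2820.2, 3163 and 3749 (ratio 1.47). Between genes antisense L1 was 905, 733 and 581 CPM in Clover and 731, 792 and 1816 in Z18trunc, so that replicate 3 alone lay above Clover. Intronic Alu RNA had ratios of 1.45 (sense) and 1.503 (antisense), while exonic Alu RNA had 0.909 and 0.985. Intronic sense Tigger RNA had a ratio of 2.13, and exonic 1.08. On this scale the median subfamily rose by 0.49 (log2). The ratio of exonic sense L1 (1.22) was below that shift, and those of intronic Alu and intronic antisense L1 were not far above it.

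**Figure D4:**
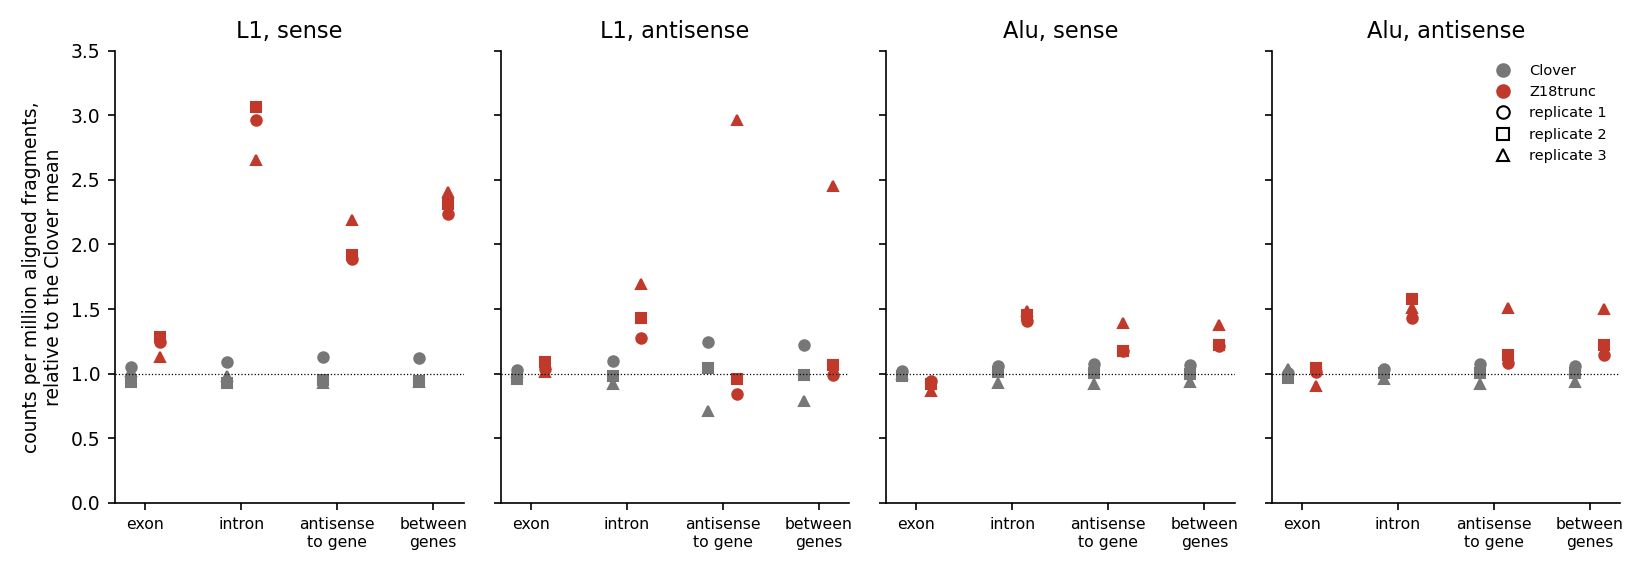
CPM of aligned fragments relative to the Clover mean for L1 and Alu by strand and place in genes, 1 point per library, 3 Clover (grey) and 3 Z18trunc (red) libraries, dotted line at the Clover mean. Intronic sense L1 has a mean ratio of 2.89 and exonic sense L1 1.22, and the antisense L1 points outside genes on their strand separate only in Z18trunc replicate 3.

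Across all TEs, intronic elements held 41.8%, 41.8% and 40.9% of sense counts in Clover and 50.9%, 51.6% and 49.2% in Z18trunc. For antisense counts the shares were 53.1%, 53.5% and 53.1% against 59.9%, 61.1% and 57.1%. Both shares were higher in each Z18trunc library (exact permutation p = 0.1; adjusted 0.15 for each). The differences of 9.05 and 6.13 percentage points fell to 2.43 and 3.46 with a score of at least 90.

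At single loci, 3565 of 19078 features rose (18.7%) and 1687 fell (8.84%) with TMM. With aligned fragments 4853 of 19556 rose (24.8%) and 730 fell (3.73%). Tested loci held 39.5% of element counts. Sense L1 elements made up 4043 of the loci tested, of which 2312 rose and 89 fell, and antisense L1 elements 774, of which 54 rose (6.98%) and 95 fell (12.3%), close to the 6.93% and 10.6% of all antisense loci. A locus that passed the filter on low counts only through Z18trunc had to differ. Among the 1548 sense L1 loci that passed it in all 3 Clover libraries, 577 rose and 89 fell, with a median log2 change of 0.40, against 794 and 1035 of all 7228 such sense loci (median -0.30). For the 502 antisense L1 loci that passed in Clover, 22 rose and 93 fell (median -0.43), near the background of 98 rising and 648 falling among all 3846 such antisense loci (median -0.45). Among intronic sense L1 loci that passed in Clover, 387 rose and 28 fell of 741, with a median of 0.79. The number of sense L1 elements with counts rose from 35353, 27816 and 31205 in Clover to 59405, 62351 and 91913 in Z18trunc, and the libraries of Z18trunc were the deeper ones.

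A pair of sense L1 elements show how large a rise at single loci could be, not its usual size. They were chosen after their values were seen, for their large rise, with at least 50 mean counts in Z18trunc, at least 3 in Clover and a score of at least 75, and their levels in Clover were low, so their values are a description with no test. An L1MA4 element in an intron of DNAH14 (chr1:224933916-224939048, + strand) had 7, 4 and 2 counts in Clover against 138, 176 and 118 in Z18trunc (a log2 difference of 4.34). The L1PB1 element printed above, in an intron of a lncRNA gene, had 7, 9 and 6 counts against 65, 93 and 51 (2.54). The groups were far apart at each. Scores in Z18trunc were 76.1 to 78.7, so part of the reads aligned to these elements was assigned to other copies.

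Other loci were named by a rule that required the score to average 90 or more in whichever group had the higher level, and the other group could lie below it (84.07 in Clover for L1PA15-16). The L1PA15-16 element printed above had 14, 20 and 10 sense counts in Clover and 69, 48 and 67 in Z18trunc (1.38 ± 0.31, edgeR adjusted p = 0.00223). An MLT1D element opposite LONP1 (chr19:5704165-5704292, + strand) had 19, 15 and 9 sense counts against 46, 50 and 63 (1.21 ± 0.32). Among the sense loci that met this naming rule, the 3 that fell most were in exons. An AluJr element in PRKAR2A (chr3:48749885-48750082, - strand) had 43, 54 and 60 counts against 24, 41 and 36 (-1.31 ± 0.26), an MLT1F element in CD96 57, 66 and 101 against 64, 55 and 40 (-1.17 ± 0.23), and an AluJb element in SPAG9 41, 62 and 54 against 52, 34 and 34 (-1.07 ± 0.25). Raw counts overlapped in the MLT1F and AluJb elements, and the groups were apart once scaled to library size.

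The antisense loci named lay in genes on the strand of the reads. A MER102c element, read as part of an exon of GPATCH4 (chr1:156594544-156594659, - strand), had 22, 15 and 20 counts in Clover and 82, 95 and 78 in Z18trunc (1.48 ± 0.24, edgeR adjusted p = 0.000123). An MLT1F element in an intron of LINC01029 had 31, 29 and 35 against 125, 100 and 109 (1.13 ± 0.21). Those that fell were an LTR86C element in an exon of B3GALNT2, with 75, 58 and 42 counts against 22, 30 and 28 (-1.81 ± 0.27), and an LTR16A1 element in an exon of CRTAP, with 187, 191 and 142 against 130, 101 and 140 (-1.16 ± 0.18). The antisense L1MB7 element printed above, in an intron of IDH3G, had 388, 427 and 419 counts against 501, 505 and 499, a log2 change of -0.39 ± 0.11 (adjusted p = 0.0114; -0.19 with aligned fragments). The loci followed by the study had few counts. On chromosome 14, 9 MER4-int elements with sense counts (chr14:105033004-105039940) had 5, 0 and 4 in Clover and 10, 8 and 10 in Z18trunc. The antisense counts came from 8 elements (chr14:105032273-105039940), with 0 in every Clover library against 4, 2 and 7. The HERVK3-int element on chromosome 16 (chr16:35517050-35524053) had 8, 10 and 11 sense counts in Clover against 10, 11 and 9 in the deeper Z18trunc libraries. This is 0.48, 0.58 and 0.62 CPM in Clover against 0.42, 0.45 and 0.38 in Z18trunc. Neither was tested.

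The composition of the bound strand moved with these shares. Weighted by counts, the A content of the elements' read strand was 27.1%, 26.8% and 26.9% in Clover and 28.3%, 28.2% and 28.1% in Z18trunc, a difference of 1.27 points without overlap (exact permutation p = 0.1; adjusted 0.15). Within sense L1 it was 38.1%, 37.9% and 37.9% against 38.7%, 38.7% and 38.7%. The U content over all TEs overlapped between groups (24.7%, 24.6% and 24.5% against 24.3%, 24.5% and 25.04%; exact permutation p = 0.9). The ratio of sense L1 to sense Alu counts, on the log2 scale, rose from -1.13, -1.30 and -1.16 to -0.25, -0.22 and -0.36, with wide separation. With a score of at least 90 its difference fell from 0.92 to 0.36, and that of the A content over all TEs from 1.27 to 0.277 points.

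Against the full-length protein, Z18fl, few subfamilies differed while Z18trunc replicate 3 was included. Sense L1 RNA was 13915, 13273 and 16967 CPM in Z18fl, below each Z18trunc library. Of 948 sense subfamilies 2 were higher and 17 lower in Z18trunc, and of 957 antisense subfamilies 2 were higher and 6 lower. None of 130 sense L1 subfamilies passed the threshold in edgeR, with 45 at an unadjusted p under 0.05 and a median of 0.13. Without Z18trunc replicate 3, 107 of 954 sense subfamilies were higher and 40 lower. Sense L1 had 54 higher and 1 lower of 131 (median 0.16), with 11 of 12 L1MA subfamilies higher (median 0.52). Sense Alu had 12 higher and 0 lower of 49. The count of called subfamilies thus turned on 1 library. Those lower in Z18trunc than in Z18fl with all libraries included HERVL18-int (-1.11 ± 0.09), HERVE_a-int (-0.81 ± 0.09), HERV3-int (-0.65 ± 0.09), Tigger5 (-0.76 ± 0.10), THE1A-int (-0.44 ± 0.08), THE1B-int (-0.43 ± 0.07) and THE1C-int (-0.37 ± 0.08). With aligned fragments 5 sense subfamilies were lower in all, and the 4 calls in ERVL-MaLR internal parts, the THE1 calls among them, were lost. Tigger sense RNA was 1161, 1167 and 1234 CPM in Z18fl and 991, 1042 and 1143 in Z18trunc.

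No subfamily passed the threshold in edgeR between Z18trunc and Z18truncZnFmut, which carries the same truncation and zinc-finger mutations. There were 44 sense and 24 antisense subfamilies at an unadjusted p under 0.05. Sense L1 RNA was 14650, 13232 and 28826 CPM, below Z18trunc in replicates 1 and 2 and above it in replicate 3, which lists 1411138 elements. Without that library no subfamily passed either (83 sense and 51 antisense at an unadjusted p under 0.05), and the median over 130 sense L1 subfamilies was -0.25. Of these 130, 35 had an unadjusted p under 0.05 in that fit. Sense L1MA had 10 of 12 at this level (median -0.40), and sense Alu 1 of 50 (median 0.13). The change in L1MA2 was -0.43 ± 0.18 with all libraries (edgeR adjusted p = 0.915) and 0.09 with aligned fragments. Without Z18truncZnFmut replicate 3 it was -0.43 ± 0.15 with TMM (edgeR adjusted p = 0.63).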

How the data were processed

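Anti-V5 PAR-CLIP libraries, 3 per construct, were grouped by sample title. The authors trimmed reads (cutadapt 4.6 in the submitters' processing notes) and ran SQuIRE on hg38, with its version not given in the sources used here, once per library without pooling. The deposited totals per element and strand are expected counts, unique reads plus shares of multimapping reads. The authors' unique reads and aligned fragments are counts, and their score is a percent. The deposited milliDiv is the annotated divergence. Shares of multimapping reads follow an estimate, so near-identical copies, young L1 above all, are uncertain as single loci.

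Totals were rounded. Each element and strand was a feature in LTR, LINE, SINE, DNA, RC and Retroposon classes, and sums were taken by subfamily, family and milliDiv bin. Tests used edgeR 4.0.16 (R 4.3.3; quasi-likelihood, TMM, filterByExpr with minimum count 10 and total 15), with Benjamini-Hochberg adjusted p under 0.05 called over both strands of a level. The strand ratio needed 10 counts on both strands in 3 libraries. Single values had two-sided exact permutation tests. Genes came from GENCODE 44 (exonic: at least 50% of the element). Python 3.11.15 and pandas 2.3.3 did the rest. The scripts were tested on simulated data.

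Named subfamilies had non-overlapping groups and at least 200 mean counts (8 sense rises, 5 falls; 4 antisense rises, 3 falls), named loci an average of 50 or more counts with a score averaging 90 or more, both in whichever group was higher. Members and lists were chosen with earlier results of these data known. Counts are of reads, and PCR copies cannot be told apart from separate molecules in them. Alternatives were aligned fragments as library sizes, DESeq2 1.42.0, no filter, unique reads, a score of at least 90, thinning to 1088939 counts, each strand alone, all 12 libraries, a replicate block, and each library left out.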

Additional observations from a re-analysis of the deposited data

Results flagged for a closer look

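Repeat classes outside the 6 that were tested held signal above the control libraries in 4 cases. These are values per 1000000 aligned fragments over both strands, with no test. The RNA class, annotated copies of small structured RNAs, had a mean of 5067 in Clover and 7441 in Z18trunc, with every Z18trunc library higher. The scRNA class had 18.1 and 22.4, and the uncertain classes LTR? and RC? had 27.2 against 37.6 and 1.13 against 2.16, again without overlap. On this scale the median subfamily rose by 0.49 (log2), a shift that the ratios of scRNA (1.23) and LTR? (1.38) did not exceed.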

How the results depend on the processing

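Named features kept direction and side of the threshold in 760 of 830 checks over the alternatives, 68 missed the threshold and 2 reversed: with aligned fragments antisense ERVK became 0.0533 and sense RTE-BovB 0.0251. Counts that moved by over 1.5 times follow. With aligned fragments, falling sense loci numbered 439, antisense loci 689 up and 291 down, sense subfamilies 391 and 7, antisense subfamilies 423 and 6, families 35 and 1, and divergence bins 108 and 1, and subfamilies below Z18fl 5. DESeq2 gave 621 falling sense and 391 falling antisense loci, no filter 79 and 75, and each strand alone 1609 and 2.0e+02. All 12 libraries in 1 fit gave 1705 falling sense loci, antisense loci 673 up and 1085 down, 17 falling sense subfamilies, antisense subfamilies 7 and 13, families 3 and 1, and bins 12 and 4. Unique reads gave 277 rising antisense loci and families 3 and 12, and thinning 250 rising antisense loci.

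Replicate numbers did not pair the libraries (correlations of deviations -0.116, -0.0723 and -0.246). With the replicate block, rising antisense subfamilies numbered 17, families 4 up and 1 down, and falling bins 6, and 91 of 130 sense L1 subfamilies rose.

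Leaving out 1 library at a time gave ranges of 2362 to 4080 rising and 467 to 1085 falling sense loci, 260 to 577 and 289 to 718 antisense loci, 106 to 148 and 40 to 107 sense subfamilies, 10 to 43 and 31 to 88 antisense subfamilies, 3 to 10 and 4 to 9 families, 14 to 23 and 8 to 17 bins, and 36 to 130 moves to sense and 15 to 51 to antisense. The lowest falling sense loci (467) came without Z18trunc replicate 2, the fewest falling sense subfamilies (40) without Clover replicate 3, and the fewest rising antisense subfamilies (10) without Clover replicate 2. Falling bins were 8 without any 1 Clover library or Z18trunc replicate 2, rising families 3 without Clover replicate 3, and moves to sense 130 without Z18trunc replicate 3 and 36 without Z18trunc replicate 2. Without Z18trunc replicate 3, 143 subfamilies were above and 69 below Z18fl. Rising sense L1 subfamilies ranged from 87 to 104.

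Of 168 checks on single values 10 reversed, 6 of them with a score of at least 90: the sense share of all TEs (-0.706), MIR sense share (0.228), mean milliDiv of all TEs (1.46) and L1 (2.19), and U content over all TEs (0.396) and sense L1 (0.213). U content over all TEs also reversed with unique reads (0.00615) and in 3 leave-one-out settings (range -0.263 to 0.128). The causes were not tested. Loci need 10 counts or so to be tested, and most elements have fewer.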

Other observations

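Chosen after their values were seen, a few ERV1 subfamilies rose on the sense strand, where with TMM most called members of that family fell (9 rose and 32 fell) and with aligned fragments most rose (57 and 7). HERVP71A-int went from 35, 30 and 31 counts in Clover to 123, 147 and 148 in Z18trunc (log2 change 1.17 ± 0.19 by edgeR, 1.64 with aligned fragments). HERVE_a-int went from 136, 102 and 138 to 396, 454 and 440 (0.84 ± 0.14) and MER61-int from 113, 94 and 130 to 278, 353 and 402 (0.66 ± 0.14). LTR1A2, a long terminal repeat, went from 851, 789 and 830 to 2188, 2262 and 2368 (0.52 ± 0.09). The largest of these changes, in MER51D (1.69 ± 0.40), rested on 3, 9 and 9 counts in Clover.

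The snRNA class, repeats derived from spliceosomal RNA genes, was lower in every Z18trunc library, with means of 1587 and 1207 per 1000000 aligned fragments. The srpRNA class, from the signal recognition particle RNA, overlapped, at 13373, 11242 and 12586 in Clover and 8349, 13795 and 13982 in Z18trunc.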
